A study of Mus musculus with 2 samples.

Results

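A set of 10 genes that encode chemokines was followed in neutrophils: Cxcl1, Cxcl2, Cxcl3, Ccl3, Ccl4, Ccl6, Ccl9, Cxcl10, Cxcl12 and Cxcl16. They were taken from a fixed list of symbols, and each of the 10 matched 1 gene among the 55536 annotated genes of the deposited tables. The cells were labelled as primary neutrophils from the spleen of virgin adult male mice of strain B6CASTF1/J, the F1 offspring of C57BL/6 females and CAST/EiJ males, at an age of 59 days, and no treatment is labelled. Total RNA, 300 ng per library with ERCC spike-in RNA, was sequenced in 2 libraries labelled as biological replicates 1 and 2. The libraries carry separate biosample labels and the same donor label, and separate animals are not stated, so any spread between them may be technical. There was 1 group, so no comparison of conditions was possible: the data give the level of each gene, the transcripts its reads were assigned to, and how far the libraries differed.

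Chemokines are small secreted proteins that steer leukocytes by binding G protein-coupled receptors, and they are classed by the spacing of their first cysteines (CC, with the cysteines side by side, and CXC, with 1 residue between them). Neutrophils both follow and make them. CXC chemokines such as Cxcl1 and Cxcl2 draw neutrophils through CXCR2, CC chemokines such as Ccl3 draw monocytes and other leukocytes, and Cxcl12 holds CXCR4-bearing cells in the bone marrow. Several chemokine messages are switched on by NF-kappaB within a short time and are short-lived because of AU-rich stretches in the 3' untranslated region.

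Depth was alike, at 18836093 (replicate 1) and 18444369 (replicate 2) estimated reads, of which 14935 and 12332 fell on the 10 genes. The 11 neutrophil markers summed to 66828 and 63340.1 TPM (a level scaled for transcript length and for the library total). Each stood above 1 TPM in each library. So did all 6 monocyte, 3 eosinophil and 4 erythroid markers, so that threshold does not check the neutrophil label. Markers of other cells summed to 1949 and 1740.3 TPM for monocytes, 39.7 and 34.2 TPM for macrophages, 117 and 118 TPM for basophils and mast cells, 67.4 and 46.6 TPM for eosinophils, 31.8 and 18.6 TPM for B cells, 45.3 and 154 TPM for stroma and endothelium, and 23.2 and 71.7 TPM for erythroid cells. The sums were 1.41 and 0.70 TPM for T cells and 14.6 and 19.0 TPM for NK cells. They were 15.6 and 8.76 TPM for dendritic cells and 6.96 and 7.31 TPM for megakaryocytes. In bulk RNA, fewer cells of a type and less RNA per cell cannot be told apart.

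Of the 10 chemokine genes, 7 reached a TPM of 1 in both libraries, against 21.5% of all annotated genes and 46.4% of protein-coding genes. The 4 highest, Ccl6, Cxcl2, Ccl9 and Ccl3, held 97.6% of the summed TPM of the 10 genes in replicate 1 and 98.3% in replicate 2. The order of mean TPM was Ccl6, Cxcl2, Ccl9, Ccl3, Ccl4, Cxcl12, Cxcl10, Cxcl16, Cxcl3 and Cxcl1. From Ccl6 down to Cxcl12, the library values of neighbours in this order did not overlap. Those of Cxcl12 and Cxcl10, of Cxcl10 and Cxcl16, and of Cxcl16 and Cxcl3 did overlap. Cxcl12 and Cxcl10 changed order between the libraries, as did Cxcl16 and Cxcl3, so 2 libraries do not resolve these. Within each library, and from few reads, Cxcl10 lay above Cxcl16 (1.38 against 0.84 TPM, then 2.07 against 1.44 TPM). Cxcl1 lay below Cxcl3 in both.

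**Figure D1:**
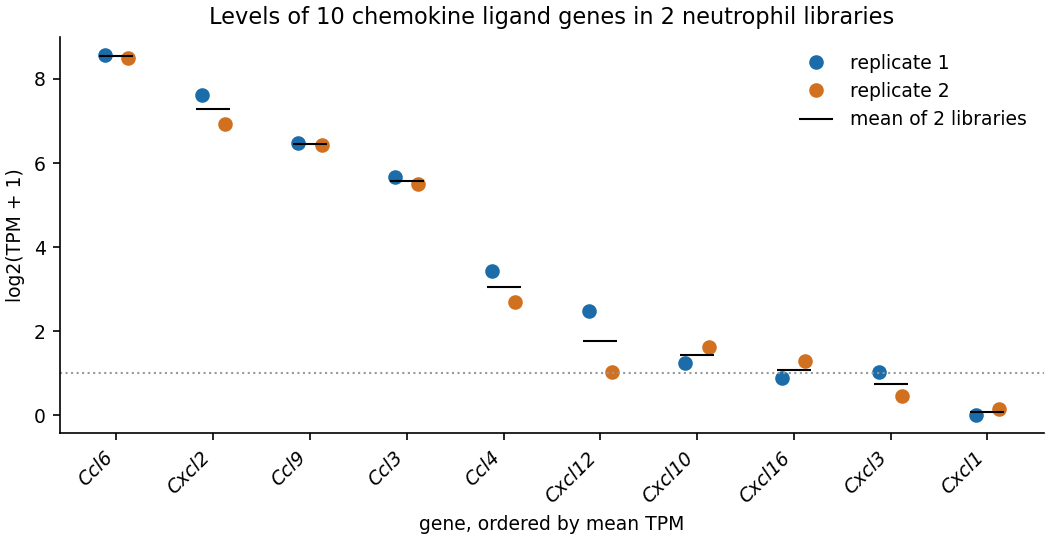
Levels of the 10 chemokine ligand genes on the log2(TPM + 1) scale (y axis), ordered by mean TPM (x axis), with 1 point per library and a bar at the mean of the 2 plotted values. The dotted line marks a TPM of 1; Ccl6 is highest at 379.6 and 362 TPM, and Cxcl1 lies at 0 and 0.12 TPM.

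Among the CXC ligands of CXCR2, Cxcl2 was abundant while its paralogs Cxcl1 and Cxcl3 had few reads. Cxcl2 (ENSMUSG00000058427.10, chromosome 5, 90903871 to 90905938 on mm10) stood at 196 TPM in replicate 1 and 121 TPM in replicate 2, from 3604 and 2145 reads. Its mean of 159 ± 53.0 TPM (SD, n = 2) was above that of 98.0% of protein-coding genes. Cxcl3 (ENSMUSG00000029379.10, chromosome 5, 90786103 to 90789600) stood at 1.05 and 0.38 TPM (mean 0.715 ± 0.474, SD, n = 2), from 28.3 and 12.2 reads. Cxcl1 (ENSMUSG00000029380.11, chromosome 5, 90891241 to 90893115) had 0 reads in replicate 1, which allows up to 3 reads, and 4 reads in replicate 2, or 0.12 TPM. The coding sequences of Cxcl2 and Cxcl3 were 89.7% identical over 300 aligned positions, and those of Cxcl1 and Cxcl2 75.7%, so reads could in principle be split between paralogs. The authors' posterior SD of the read count was 0.57 reads in replicate 1 and 0.45 in replicate 2 for both Cxcl2 and Cxcl3.

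These paralogs lie within 1 cluster on chromosome 5 and, in the reference, carry the same letters at a kappaB-like position just before their start sites. The promoters are shown because genes of such different levels share them. The sequences are from RefSeq (GRCm38.p6, the build called mm10), plus strand, 5′ to 3′, and end just before the start site of the gene in RefSeq or in annotation release M21, whichever lies further upstream: chr5:90890995-90891240 for Cxcl1, chr5:90903649-90903870 for Cxcl2 and chr5:90785851-90786100 for Cxcl3. Capitals mark matches on either strand to a loose kappaB-like pattern (3 G, any 5 bases, 2 C), and overlapping matches run together.
Cxcl1: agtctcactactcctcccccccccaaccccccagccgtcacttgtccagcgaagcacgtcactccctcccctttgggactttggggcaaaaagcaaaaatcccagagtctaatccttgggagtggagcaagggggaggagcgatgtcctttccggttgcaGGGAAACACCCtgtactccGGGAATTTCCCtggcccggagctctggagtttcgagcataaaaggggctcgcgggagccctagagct
Cxcl2: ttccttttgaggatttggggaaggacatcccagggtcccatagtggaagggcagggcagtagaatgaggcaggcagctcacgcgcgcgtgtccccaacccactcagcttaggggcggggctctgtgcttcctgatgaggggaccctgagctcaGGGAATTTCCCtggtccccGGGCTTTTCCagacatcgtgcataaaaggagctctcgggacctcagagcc
Cxcl3: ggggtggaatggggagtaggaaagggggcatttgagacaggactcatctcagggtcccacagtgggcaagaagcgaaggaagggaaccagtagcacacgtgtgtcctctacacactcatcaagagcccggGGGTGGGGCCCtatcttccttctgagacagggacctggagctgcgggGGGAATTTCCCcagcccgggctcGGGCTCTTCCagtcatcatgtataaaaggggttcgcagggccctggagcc
The printed sequences of Cxcl1 and Cxcl2 thus stop 4 and 28 bases short of the end of the RefSeq window, while that of Cxcl3 holds the whole window. The run GGGAATTTCCC stood at position -71 in Cxcl1, -97 in Cxcl2 and -73 in Cxcl3, counted from the RefSeq start site, not from the end of the printed sequence, to the first base of the run. It was picked out after the promoters were seen. Of 32851 RefSeq promoter windows of 250 bases, 14 held it on either strand, or 0.0426%, among them these 3 genes. The loose kappaB-like pattern is common and was found in 45.8% of the windows and in 6 of the 8 members searched, these 3 with Ccl9, Cxcl10 and Cxcl12. Aligned over the 250 bases, the promoter of Cxcl2 was 54.7% identical to that of Cxcl3 and 48.9% identical to that of Cxcl1, while the promoters of the other pairs of members (those not both among Cxcl1, Cxcl2 and Cxcl3) ran from 41.1% to 48.5%. A match to letters is a description and says nothing about binding in these cells.

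The CC members on chromosome 11 spanned a wide range of levels. Ccl6 (ENSMUSG00000018927.3, 83587882 to 83593087, minus strand), a chemokine made by myeloid cells that acts through CCR1, was the highest of the 10 at 379.6 and 362 TPM, from 7650 and 6840 reads. Its mean of 371 ± 12.2 TPM (SD, n = 2) exceeded that of 99.2% of protein-coding genes and was 2.34-fold that of Cxcl2. Ccl9 (ENSMUSG00000019122.8, 83572919 to 83578636, minus strand), its neighbour and another CCR1 ligand, stood at 87.9 and 85.4 TPM, a mean of 86.7 ± 1.75 TPM (SD, n = 2). Both were nearly level between the libraries, and Ccl9 had 2635 and 2584 reads. Ccl3 (ENSMUSG00000000982.5, 83647844 to 83649355, minus strand), a macrophage inflammatory protein gene whose product binds CCR1, stood at 49.7 and 44.3 TPM (mean 47.0 ± 3.85, SD, n = 2), from 627 and 539 reads. Ccl4 (ENSMUSG00000018930.3, 83662584 to 83664683, plus strand), a related macrophage inflammatory protein gene beside it, stood at 9.72 and 5.47 TPM (mean 7.60 ± 3.01, SD, n = 2), from 103 and 56 reads. Ccl3 thus exceeded Ccl4 by 6.19-fold in mean TPM, and their coding sequences were 66.7% identical. Those of Ccl6 and Ccl9 were 64.8% identical.

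The promoter of Ccl6 held no kappaB-like match, where those of the 3 CXCR2 ligands did. No match to the interferon-response-like pattern, to the AP-1-like pattern TGANTCA, to the C/EBP-like pattern TTGCNNAA or to TATAAA was found on either strand of its 250 bases. The sequence is printed as the promoter of the highest member (chr11:83593088-83593337, minus strand of GRCm38.p6, from RefSeq, written 5′ to 3′ on the gene's strand) and has no capitals, since nothing matched.
Ccl6: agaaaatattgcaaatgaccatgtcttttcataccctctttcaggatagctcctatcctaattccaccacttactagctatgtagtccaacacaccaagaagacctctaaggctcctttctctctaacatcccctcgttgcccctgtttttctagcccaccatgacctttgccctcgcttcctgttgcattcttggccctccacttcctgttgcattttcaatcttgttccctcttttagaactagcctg
The promoter of Ccl3 held none of these patterns either. Of all windows, 6.75% held the AP-1-like, 9.56% the C/EBP-like and 12.4% the TATAAA pattern. No match says only that these letters are not in this window. Ccl4 and Cxcl16 were not searched.

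The remaining CXC members were low. Cxcl10 (ENSMUSG00000034855.13, chromosome 5, 92346638 to 92348889, minus strand), an interferon-induced ligand of CXCR3 that draws T cells, stood at 1.38 and 2.07 TPM (mean 1.73 ± 0.488, SD, n = 2), from 28 and 40 reads. Cxcl16 (ENSMUSG00000018920.11, chromosome 11, 70453983 to 70459984, minus strand), a membrane-anchored ligand of CXCR6, stood at 0.84 and 1.44 TPM (mean 1.14 ± 0.424, SD, n = 2), from 37 and 60 reads. Cxcl12 (ENSMUSG00000061353.11, chromosome 6, 117168535 to 117181367, plus strand), the CXCR4 ligand made mainly by stromal cells, stood at 4.58 TPM in replicate 1 and 1.06 TPM in replicate 2 (mean 2.82 ± 2.49, SD, n = 2), from 223 and 52 reads. The first 2 were slightly higher in replicate 2, and Cxcl12 was the reverse. Genes on the opposite strand overlap Cxcl10 (Art3, 2 and 0 reads) and Cxcl16 (Zmynd15, 3 and 1 reads), and a noncoding gene overlaps Ccl6 (E230016K23Rik, 78 and 76 reads). The library kit keeps strand per the labels, but the sources do not say whether counting used it.

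Cxcl10 is shown for its promoter, the 1 member of 8 searched that held the interferon-response-like pattern (GAAA repeated after any 2 bases), which 2.98% of windows held (chr5:92348890-92349139, minus strand of GRCm38.p6, from RefSeq, 5′ to 3′ on the gene's strand). Capitals mark that pattern at position -213 and the kappaB-like matches at -159 and, overlapping, at -104 and -103. An AP-1-like match at -74, not in capitals, was also found, and Ccl9 held such a match too.
Cxcl10: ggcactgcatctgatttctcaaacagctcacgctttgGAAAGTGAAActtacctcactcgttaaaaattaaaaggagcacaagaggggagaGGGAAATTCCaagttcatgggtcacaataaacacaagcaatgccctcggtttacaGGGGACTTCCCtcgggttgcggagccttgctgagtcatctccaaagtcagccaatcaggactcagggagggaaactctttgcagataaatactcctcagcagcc
Its level lay within the range of the interferon response genes and below their median: all 12 genes of that list had a TPM above 1 in each library, with medians of 4.13 and 5.82 TPM. The lowest were Ifit1 at 1.47 and 1.07 TPM, Ifit2 at 1.85 and 2.24 TPM and Ifit3 at 1.33 and 3.04 TPM. Among the highest of them were Irf1 at 59.5 and 59.5 TPM, Stat2 at 20.1 and 19.2 TPM, and Irf7 at 12.6 and 14.7 TPM. In the comparison of the libraries described further on, which holds counting error alone, 1 of these 12 genes was called. It was Ifit3, higher in replicate 2, and 2.25% of all tested genes were called. With no fold threshold 6 of the 12 passed as higher and 0 as lower, against 11.8% and 12.9% of all tested genes. The median log2 ratio of the 12 was 0.18.

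Reads of 7 members were assigned in part, or for Cxcl1 wholly, to transcripts annotated as retained intron, which have no coding sequence. The shares differed widely between members. Some of these transcripts span about the whole gene, such as Cxcl1-202 (1871 bases), Cxcl2-203 (2066 bases) and Cxcl3-202 (3498 bases). In total RNA, reads on them cannot be told apart from reads of unspliced RNA, so the shares do not show processed transcripts. For Cxcl2, the coding transcript Cxcl2-201 (100 codons) took 49.2% of the gene's TPM in replicate 1 and 44.4% in replicate 2. Transcripts annotated as retained intron, Cxcl2-203 and Cxcl2-204, together took 50.1% and 55.0%, and by reads 47.4% and 52.5%. That mean share was higher than in 92.0% of the 6473 protein-coding genes that have an annotated retained-intron transcript and average 1 TPM or more, whose median was 19.7% in replicate 1 and 19.1% in replicate 2. The second transcript table, estimated straight from the reads, gave 44.7% and 51.1%. Cxcl2 was thus split near evenly in both tables, but the larger class in replicate 1 differed, with Cxcl2-201 at 54.8% in the second. The 2 retained-intron transcripts also changed order. Cxcl2-204 took 31.4% and 34.3% in the first table and 18.8% and 22.4% in the second. Cxcl2-203 took 18.65% and 20.7% in the first and 25.9% and 28.7% in the second.

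For Ccl6 the tables differed on the leading transcript class by TPM in both libraries, but not by reads. The table from the alignments gave Ccl6-201, the coding transcript of 116 codons, 62.0% and 57.1% of TPM, and the retained-intron transcripts 38.04% and 42.9%, a mean share above that of 83.1% of the same 6473 genes. The second table gave Ccl6-201 35.3% and 38.4% and the retained-intron transcripts 64.7% and 61.6%. By reads in the first table the retained-intron share was lower, 22.0% and 25.9%, since Ccl6-202 and Ccl6-203 are shorter (776 and 442 bases against 1440). Estimated reads in the second table also put Ccl6-201 first, with 4358 in replicate 1 and 4234 in replicate 2. There Ccl6-202 had 3153 and 2596, and Ccl6-203 had 116 and 125. The total for Ccl6 was also higher in the second table, at 501 and 443 TPM.

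Ccl9 had no annotated retained-intron transcript, but a short noncoding one, Ccl9-202 (398 bases), took 50.7% and 48.0% of its TPM. The same transcript held 9.54% and 8.63% of its reads. Ccl3 and Ccl4 have 1 annotated transcript each, a coding one. In Cxcl10 the coding transcript Cxcl10-201 took 92.9% and 94.4% of TPM, and in Cxcl16 the coding Cxcl16-201 took 73.0% and 71.9%. All 4 reads of Cxcl1 fell on its retained-intron transcript Cxcl1-202, and the coding Cxcl1-201 had 0 reads in both libraries and in both tables. For Cxcl3 the retained-intron transcript took 20.95% and 33.3% of TPM, or 49.1% and 64.8% of reads, from few reads in all. Against the same 6473 genes, the mean share of TPM was above that of 64.5% for Cxcl3, 61.1% for Cxcl16, 18.1% for Cxcl10 and 6.1% for Cxcl12, so the members lay on both sides of the median.

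**Figure D2:**
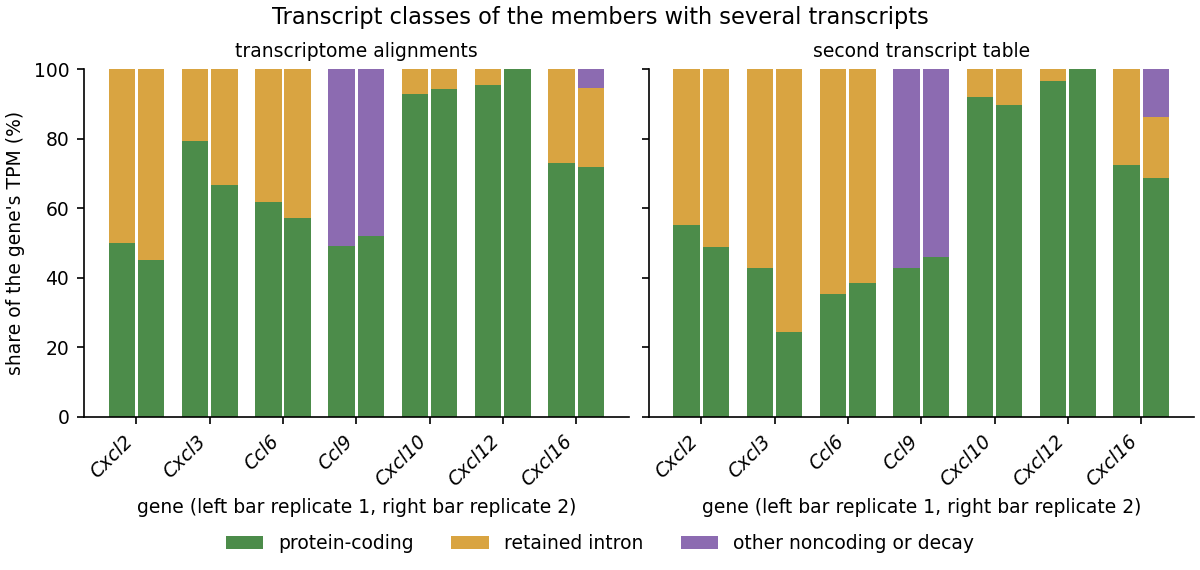
Share of each gene's TPM in percent (y axis) by annotated transcript class for the 7 genes with several transcripts and reads in both libraries (x axis), left bar replicate 1 and right bar replicate 2, from the table made from alignments (left panel) and from the second transcript table (right panel). Retained-intron transcripts of Cxcl2 take 50.1% and 55.0% on the left and 44.7% and 51.1% on the right, while those of Ccl6 take more on the right than on the left.

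Cxcl12 reads were spread over 3 coding transcripts that differ at the end of the protein, the alpha, beta and gamma forms by their lengths of 89, 93 and 119 codons. The form of 89 codons (Cxcl12-202) held 71.8 reads in replicate 1 and 19.0 in replicate 2. The form of 93 codons (Cxcl12-203) held 114 and 18.0 reads, and the form of 119 codons (Cxcl12-201) 26.2 and 15.1 reads. Each of these 3 forms had fewer reads in replicate 2, in the second table too. The retained-intron transcript held 11.1 and 0 reads.

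The members also differed in AU-rich letters of the 3' untranslated region, counted in the first-numbered coding transcript of each member (Cxcl12-202 for Cxcl12) of annotation release M21. ATTTA, the DNA letters of the AU-rich pentamer, occurred 11 times in the 734 bases of Cxcl2, or 15.0 per kb, a density above that of 99.6% of 9815 expressed protein-coding genes (mean TPM of 1 or more). It occurred 7 times in 592 bases of Cxcl1, 5 times in 645 bases of Cxcl3, 5 times in 409 bases of Ccl3 and 2 times in 302 bases of Ccl4, with densities of 11.8, 7.75, 12.2 and 6.62 per kb. Each of these 5 genes lay above at least 96.3% of expressed genes. The longer pattern TATTTAT was found in these 5 members and in 26.0% of expressed genes. It was absent from the other 5, Ccl6, Ccl9, Cxcl10, Cxcl12 and Cxcl16, whose ATTTA densities ran from 1.41 to 4.24 per kb. The median over expressed genes was 1.20 per kb. These densities were above those of 89.8% of expressed genes for Ccl6, 76.5% for Cxcl10, 75.8% for Cxcl12, 66.0% for Ccl9 and 53.9% for Cxcl16.

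**Figure D3:**
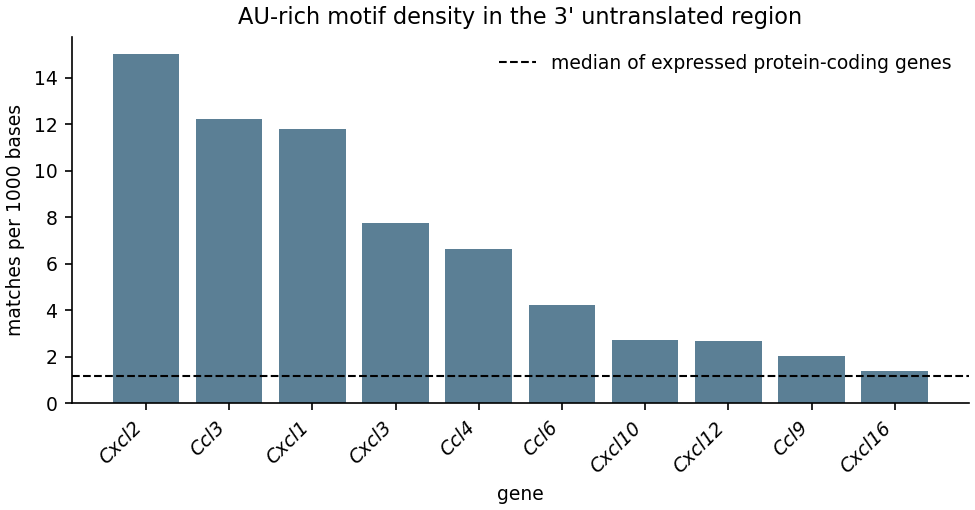
Matches to the AU-rich pentamer per kb of 3' untranslated region (y axis) for each member (x axis), counted on the plus strand of the transcript, with a dashed line at the median of 1.20 over 9815 expressed protein-coding genes. Cxcl2 is highest at 15.0 and Cxcl16 lowest at 1.41.

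Between the libraries, Cxcl12 was the 1 member that passed the test, and it was lower in replicate 2. Rounded reads were compared by a two-sided exact conditional binomial test with Benjamini-Hochberg adjustment over 12434 genes, and calling a gene took an adjusted p no higher than 0.05 together with a 2-fold difference or more. This test compares these 2 libraries and not conditions, and it holds counting error alone. Of the 8 members with at least 50 summed reads, 1 was called, against 2.25% of all tested genes in either direction, 0.684% called lower in replicate 2 and 1.57% called higher. Cxcl12 was 4.15-fold lower in replicate 2 (95% exact counting interval 3.08 to 5.77), at an adjusted p of 1.2e-23 by that exact test. Of all tested genes, 0.386% had a larger ratio in either direction. By edgeR's negative binomial test, with 1 library on each side and a dispersion estimated from the same 2 libraries, its adjusted p was 3.58e-08 and 1.46% of genes were called. That dispersion is no measure of the spread between replicates of a group.

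Some markers of other cells also differed between the libraries, in both directions. B cell genes were lower in replicate 2, with 4 of 5 called, among them Cd79a at 7.28 and 3.06 TPM, Ms4a1 at 1.88 and 0.84 TPM, and Pax5, whose reads fell from 465 to 200 while its TPM was 5.82 and 4.60. Cd79b, at 11.5 and 7.19 TPM, was under 2-fold. In the stroma and endothelium list 3 of 12 genes stood at 1 TPM or more in each library, and the 2 called were higher in replicate 2: Col1a1 at 24.9 and 96.4 TPM and Col1a2 at 14.2 and 49.7 TPM. Lepr, which marks the marrow stromal cells rich in Cxcl12, had 27 and 7 reads (0.46 and 0.51 TPM), too few to be tested. Other untested genes of that list had more reads in replicate 2, with 12 and 36 for Dcn, 0 and 12 for Lum, 7 and 15 for Pdgfra, 6 and 10 for Pdgfrb and 15 and 18 for Kdr. Col3a1 (11 and 8 reads) and Cdh5 (14 and 10 reads) had fewer, and Madcam1 had 0 reads in both libraries. The tested Pecam1 stood at 4.52 and 4.76 TPM. All 4 erythroid genes listed were called higher in replicate 2. The part of these cells in the difference of Cxcl12 was not tested.

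The other members stayed under 2-fold or had too few reads to be tested. With no fold threshold, 4 of the 8 tested members had an adjusted p no higher than 0.05 and were lower in replicate 2, and 0 were higher, against 24.7% of all tested genes in either direction, 12.9% lower and 11.8% higher. Cxcl2 was 1.64-fold lower (interval 1.55 to 1.73), at an adjusted p of 4.26e-73 by the exact binomial test and of 0.165 by edgeR's negative binomial test. Ccl4 was 1.79-fold lower (interval 1.28 to 2.53), at an adjusted p of 2.62e-03 by the exact test. From the second transcript table that adjusted p was 0.099, and by the negative binomial test it was 0.475. Ccl6 was 1.09-fold lower (interval 1.06 to 1.13), at an adjusted p of 3.22e-06 by the exact test and 1.0 by the negative binomial test. Ccl6 had 14490 summed reads, and larger ratios of members with fewer reads did not pass.

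Ccl3 (1.13-fold lower, interval 1.01 to 1.28), Ccl9 (log2 ratio 0.01), Cxcl10 (1.46-fold higher in replicate 2, interval 0.882 to 2.47) and Cxcl16 (1.66-fold higher, interval 1.09 to 2.58) did not pass at adjusted p of 0.105, 0.928, 0.315 and 0.0572 by the exact binomial test. Cxcl3 and Cxcl1 had 40.5 and 4 summed reads and were not tested. The log2 ratio of Cxcl3 was -1.15 in the gene table and -0.47 in the second table. Over the 8 tested members the median log2 ratio was -0.15, and 5 of 8 were below 0, beside a median of 0.00 and 50.1% below 0 over all tested genes.

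**Figure D4:**
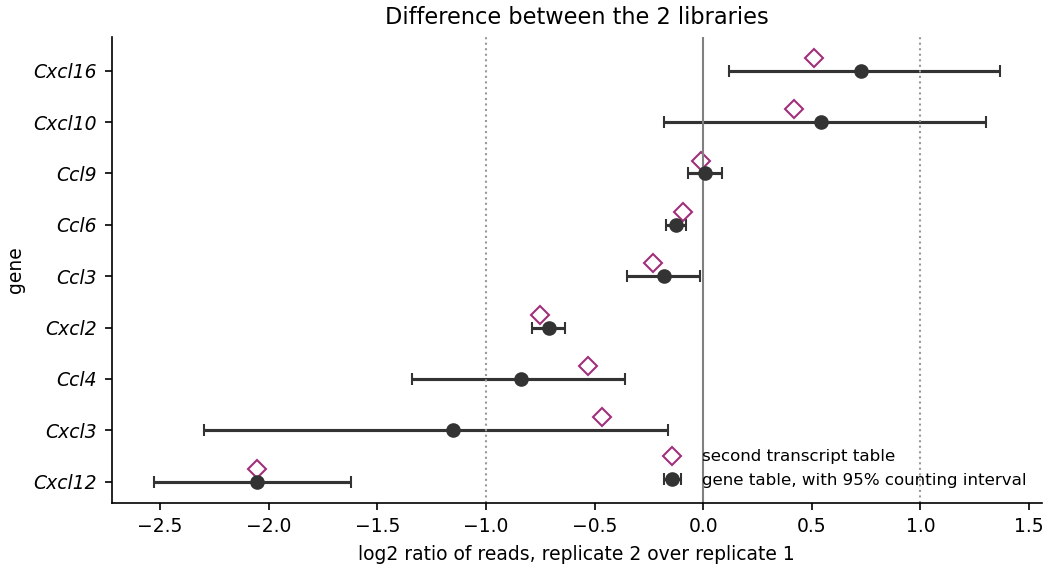
Log2 ratio of reads, replicate 2 over replicate 1 (x axis), for the 9 members with at least 10 summed reads (y axis), as circles with 95% exact counting intervals from the gene table and as open diamonds from the second transcript table. Dotted lines mark 2-fold; Cxcl12 at -2.05 lies beyond it with its whole interval, and Ccl9 lies near 0.

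The rest of the chemokine ligand family was mostly low or without reads. Of 28 other ligand genes, 5 stood at 1 TPM or more in each library and 15 had 0 reads in both, which allows up to 3 reads per library. The highest was Ccl2, which attracts monocytes, with levels of 21.3 and 27.6 TPM, followed by the platelet chemokine genes Pf4 at 8.16 and 7.45 TPM and Ppbp at 6.72 and 6.07 TPM, and by Ccl25, a chemokine gene of thymus and intestine, at 6.17 and 5.59 TPM. Ccl27a was the fifth, at 1.01 and 1.29 TPM. The 28 genes summed to 45.4 and 49.6 TPM, against 731 and 624 for the 10 members. Of 4 tested, 0 were called by the exact binomial test, and 1 (Ccl2) had an adjusted p of at most 0.05. Of all tested genes, 2.25% were called and 24.7% had such an adjusted p.

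**Figure D5:**
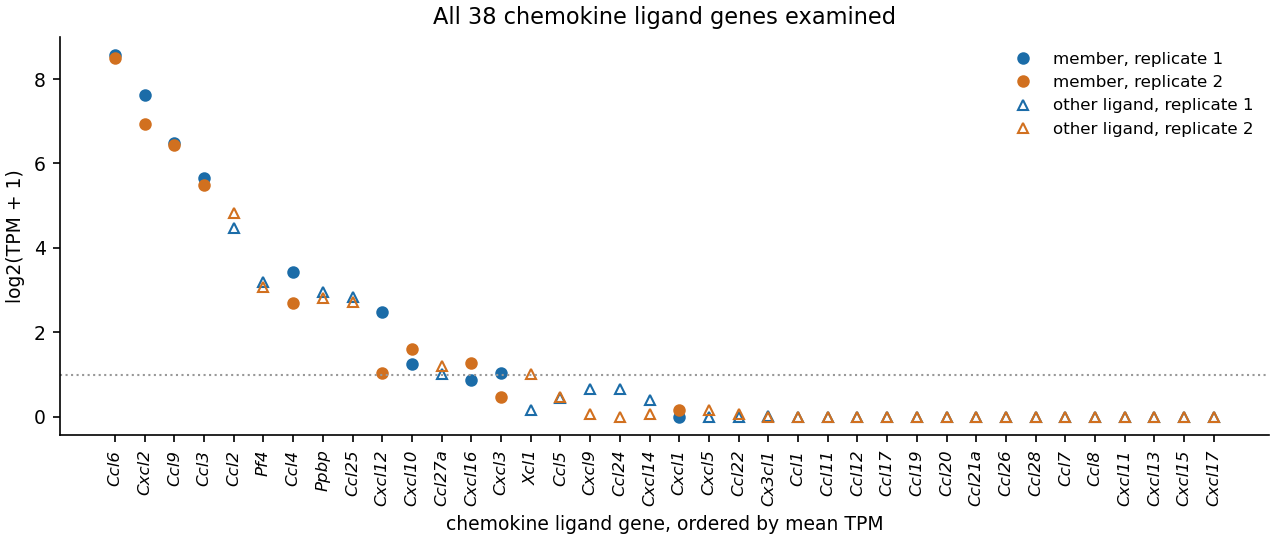
Levels on the log2(TPM + 1) scale (y axis) of all 38 chemokine ligand genes examined, ordered by mean TPM (x axis), with filled circles for the 10 members and open triangles for the 28 other ligand genes, coloured by library. Ccl6, Cxcl2, Ccl9 and Ccl3 lie above every other ligand gene in both libraries, and Ccl2 is the highest of the others at 21.3 and 27.6 TPM.

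The receptors for the members were present for some ligands and near 0 for others. CXCR2, the receptor of Cxcl1, Cxcl2 and Cxcl3, was encoded at 173 and 144 TPM (Cxcr2), the Cxcl12 receptor gene Cxcr4 at 292 and 252 TPM, and Ccr1, the receptor gene for Ccl3, Ccl6 and Ccl9, at 110 and 77.6 TPM. Cxcr3 and Cxcr6, for Cxcl10 and Cxcl16, stood at 0.55 and 0.44 TPM and at 0.06 and 0.09 TPM. Of the 23 receptor genes, 6 stood at 1 TPM or more in each library, against 46.4% of protein-coding genes. By the exact binomial test 0 of the 8 tested were called, against 2.25% of all tested genes. With no fold threshold 5 had an adjusted p of at most 0.05, all lower in replicate 2, against 12.9% of all tested genes. Ccr2, which is also on the list of monocyte markers, was among the highest at 119 and 115 TPM. The cells that its reads came from were not told apart.

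Other genes under NF-kappaB had ratios in both directions between the libraries. Of the 18 listed, 17 stood at 1 TPM or more in each library, with Il1b at 194 and 122 TPM, Nfkbiz at 127 and 134 TPM, Nfkbia at 125 and 111 TPM and Tnfaip3 at 102 and 130.2 TPM. None of 17 tested was called at 2-fold by the exact binomial test, against 2.25% of all tested genes. Without the fold threshold 7 passed as lower in replicate 2 and 2 as higher, against 12.9% and 11.8% of all tested genes. The test holds counting error alone, so genes with many reads pass at small ratios. The median log2 ratio was -0.08. The 10 mature neutrophil genes all passed as lower in replicate 2 in the same way, with a median log2 ratio of -0.24. Of 6 primary granule genes, 5 passed as higher and 1 as lower, with a median of 0.34. The same shares of all tested genes apply to both lists. Their part in the ratios of Cxcl2 and Ccl6 was not tested.

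The protein-coding genes nearest to Ccl6 in level over the 2 libraries, by Euclidean distance on the log2(TPM + 1) scale, were Itgb2 (distance 0.047, 392 and 365 TPM) and Tpm3 (distance 0.052, 366 and 362 TPM). Those nearest to Cxcl12 were Zfp518b (distance 0.30, 3.75 and 1.34 TPM) and Ikzf3 (distance 0.30, 3.88 and 1.41 TPM). With 2 libraries this likeness is little more than a like level.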

How the data were processed

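Per the labels, the authors' deposited tables hold expected counts, TPM and, per transcript, its percent of the gene's TPM, from transcriptome alignments to mm10 with annotation release M21; a second deposited transcript table of estimated counts and TPM was made from the reads. Names of the aligner and programs were not given in the sources used here. The members and lists were chosen with earlier results of these data known. Named genes are the members, in each list up to 4 genes with the highest mean TPM and those called, and the 2 nearest in level to Ccl6 and Cxcl12. Genes overlapping a member are named as well. Other genes named outside that rule (Ifit1, Ifit2, Ccl27a, Cxcr3, Cxcr6 and the low genes of the stroma and endothelium list), the shared promoter run, the AU-rich counts and the retained-intron shares were chosen after their values were seen.

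Expected counts were rounded for tests. Features without a gene, ERCC controls and ribosomal RNA genes (4.12% and 4.53% of reads) were left out of totals and tests. Ratios had 0.5 added to each count. Intervals are exact Clopper-Pearson intervals at 95% and, like floors of 3 reads, cover counting error only. A quasi-likelihood test has no residual degrees of freedom here. The binomial test was checked on simulated data. Alternatives were TMM (edgeR 4.0.16) and DESeq2 1.42.0 scaling, count minimums, the negative binomial test, TPM ratios and the second table. Coordinates are from GENCODE M21, promoters from RefSeq (8 of 10 members matched). Proteins were not analysed here, and some genes of the lists are not reported here by name. Software was Python 3.11.15, scipy 1.17.1, Biopython 1.88 and R 4.3.3.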

Additional observations from a re-analysis of the deposited data

How the results depend on the processing

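The call of Cxcl12 was kept under TMM and DESeq2 scaling, a summed-count minimum of 10, no count minimum, the second transcript table and edgeR's negative binomial test, with 1 member called each time. With no fold threshold 4 members passed. The log2 ratio of Ccl9, near 0, changed sign under DESeq2 size factors (-0.0035), in the second table (-0.0098) and as a ratio of TPM (-0.041), and the cause was not tested. In the second transcript table, 6 of 7 leading transcript shares moved by more than the spread between libraries, the most in Cxcl3-201, from a mean of 73.1% to 33.6% of the gene's TPM, and in Ccl6-201, from 59.5% to 36.8%. Members at a TPM of 1 numbered 8 to 8 when either library was left out (Cxcl16 in replicate 2 alone, Cxcl3 in replicate 1 alone), and other ligand genes 5 to 6. Depth limits Cxcl1, Cxcl3, Cxcl10 and Cxcl16 most. The libraries share a donor label, the mice are hybrids aligned to 1 reference, and the effect of the CAST/EiJ allele on counts was not tested.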
